A study of Mus musculus with 17 samples.

Results

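Ferritin and the antioxidant genes controlled by NRF2 were followed by RNA-seq in mouse neural retinal progenitor cells (mNRPCs), as 10 genes of the 18836 listed in at least 1 library. Ferritin light chain (Ftl1, Entrez 14325) and heavy chain (Fth1, 14319) were joined by Hmox1, Nqo1, Gclm, Gclc, Txnrd1, Srxn1, Slc7a11 and Prdx1. The set was selected on the expected counts of Ftl1 in the libraries with bFGF, where it came to hold more counts than any other gene. The differences between libraries with and without bFGF are therefore given for these 10 genes as a description without a test. The effect of CHIR99021, its interaction with bFGF and the change over days in the libraries without bFGF were not used in the choice and were tested. All 10 genes were listed in all 17 libraries and passed the filter on low values, a mean of at least 1 fragment per kilobase of transcript, scaled to library size (FPKM).

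The cells had been isolated from the neural retina of 8- to 10-week-old C57BL/6 mice and kept in a basic medium (BM) that held N2, B27 and beta-mercaptoethanol, on Matrigel, with bFGF, a growth factor that drives division of neural progenitors, and CHIR99021, an inhibitor of the kinase GSK3 that activates Wnt signaling. A day 0 library was labeled as untreated, and the study's text counts these cells as grown in BM, its control medium. The other 16 libraries came from cells in BM alone (BM), BM with CHIR99021 (C), BM with bFGF (B) or BM with both (BC) on days 1, 3, 5 and 7, with 1 library for each treatment and day. Beta-mercaptoethanol, a reducing agent, was therefore shared by all groups. No group had a replicate, so the tests below took their error from the spread left after day, bFGF and CHIR99021 were fitted, and nothing says that the libraries came from separate isolations.

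Total expected counts per library ran from 17571973 to 19428744. Of the progenitor markers, Pax6, Six3, Sox2 and Nes were present, with Pax6 at 42.2 to 207 FPKM without bFGF and 10.7 to 82.4 FPKM with it, whereas Rax and Rcvrn had means of 0.01 and 0.08 FPKM. Of 12 macrophage and microglia markers, 11 had a mean below 1 FPKM. The exception was Cd68, a lysosomal membrane protein, at 1.49 to 3.69 FPKM without bFGF and 2.03 to 79.8 FPKM with it, and Cx3cr1, a microglial chemokine receptor, was 0.02 to 0.10 FPKM without bFGF and 0.03 to 2.25 FPKM with it. The highest values of Csf1r, C1qb, Tyrobp, Adgre1, Lyz2, Aif1 and Itgam were in cultured libraries without bFGF. Those of Ptprc, C1qa and C1qc were in libraries with it, and none of these genes reached 1 FPKM. The summed level of the 12 markers was 1.77 to 5.37 FPKM without bFGF and 2.20 to 82.0 FPKM with bFGF. Glul, the glutamine synthetase of Mueller glia, rose with bFGF (log2 fold change 0.70, SE 0.11, adjusted p = 0.000288 by edgeR). It was 12.4 to 18.8 FPKM over the libraries without bFGF and 15.5 to 32.6 FPKM with it. The other Mueller glia and astrocyte markers, Rlbp1, Slc1a3, Aqp4 and Gfap, did not pass the filter. Aqp4, the highest of them, was 0.05 to 1.53 FPKM without bFGF and 0.01 to 0.13 FPKM with it. Six3 fell by 0.50 (adjusted p = 0.00085), Sox2 fell by 0.48 (adjusted p = 0.0014) and Pax6 fell by 1.94 (adjusted p = 0.000148). Nes was not called (-0.04, SE 0.12, adjusted p = 0.785 by edgeR). The part of these marker changes in the results below was not tested. In bulk RNA, fewer cells of a type and less RNA per cell cannot be told apart.

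Ferritin is a hollow protein shell, built from light and heavy chains, that stores iron in a form that cannot feed oxidative chemistry, and the heavy chain oxidizes the iron as it enters. Its synthesis is set largely at translation: when iron is scarce, the iron regulatory proteins Aco1 (IRP1) and Ireb2 (IRP2) bind a stem-loop, the iron-responsive element, in the 5′ end of both ferritin messages and hold back the ribosome. Transcription is raised by NRF2 (Nfe2l2), a factor that Keap1 and Cul3 mark for degradation until oxidants or electrophiles disarm Keap1. NRF2 then pairs with a small Maf protein on antioxidant response elements of genes for glutathione synthesis, thioredoxin recycling, quinone reduction and heme breakdown. Bach1 occupies the same elements, most clearly at Hmox1, and leaves them when heme is plentiful.

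The iron-responsive element is shown because it is the sequence that ties the pair of ferritin messages together and to the iron transporters described below. A search of GENCODE M21 transcripts (GRCm38, the build mm10 of the files) for a loop of CAGTGN closed by 5 paired bases (G with T allowed), with an unpaired C just before the stem, found it in the 5′ untranslated region of Ftl1, at chr7:45459785-45459801 on the minus strand, and of Fth1, at chr19:9982738-9982754 on the plus strand. The capitals mark the loop.
Ftl1: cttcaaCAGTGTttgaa
Fth1: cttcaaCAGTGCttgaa
Slc40a1: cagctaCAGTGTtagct
Tfrc: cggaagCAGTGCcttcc
The stem bases were the same in both ferritin genes. Slc40a1, which encodes the iron exporter ferroportin, held 1 match in its 5′ untranslated region at chr1:45925471-45925487 (minus strand). Tfrc, the transferrin receptor that brings iron in, held 4 in its 3′ untranslated region, of which the first, at chr16:32631225-32631241 (plus strand), is printed. The pattern was found in 0.961% of 58797 protein-coding transcripts and in no other of the 10 genes.

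The antioxidant response element core, TGACNNNGC on either strand, was looked for in RefSeq promoter windows (GRCm38.p6, 250 bases before to 50 after a start site), because it is the sequence that NRF2 binds. It was present in 4 of the 11 windows that 8 of the genes had, 1 in each of 4 genes, and in 12.4% of all 32851 windows. The stretches below are printed as the plus strand reads, with the match in capitals. All 4 genes are on the plus strand and the motif lies on the other one.
Gclm: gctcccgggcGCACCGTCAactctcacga
Txnrd1: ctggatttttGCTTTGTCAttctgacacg
Srxn1: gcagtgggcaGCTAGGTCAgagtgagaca
Prdx1: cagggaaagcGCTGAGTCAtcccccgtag
These stretches are chr3:122245413-122245441, chr10:82859104-82859132, chr2:152105542-152105570 and chr4:116685456-116685484, in that order. Hmox1 and Gclc had no window, and sequence outside the windows was not searched, so a gene without a match may still hold the element. Of the 4 genes with a match, Txnrd1 was higher with bFGF on days 3 to 7 without overlap. Prdx1 was above its matched library in each pair of those days although the groups overlapped. Srxn1 was lower with bFGF on days 5 and 7 and Gclm kept a narrow range, as described below. A link between the match and these values was not tested.

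Ftl1 was the most abundant of the 10 messages per length in every library. It stood at 3859 FPKM on day 0. In BM it was 5445, 2993, 2686 and 2281 FPKM on days 1, 3, 5 and 7, and in C it was 6543, 3815, 3676 and 3475 FPKM. Without bFGF the day 1 libraries were thus the highest, and the level was lower on each later day.

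In B, Ftl1 was 4331, 8027, 13090.2 and 14077 FPKM on days 1, 3, 5 and 7, and in BC it was 5443, 8126, 10649.8 and 13103 FPKM. On day 1 both libraries with bFGF lay below their partners without it, and on days 3 to 7 every library with bFGF lay above every library without it, with medians of 11870.0 and 3234 FPKM. On log2(FPKM + 1) the difference was -0.33 (B minus BM) and -0.27 (BC minus C) on day 1 and 2.62 and 1.91 on day 7. Over all 8 pairs it averaged 1.28 ± 1.09 (SD, n = 8 pairs of libraries).

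**Figure D1:**
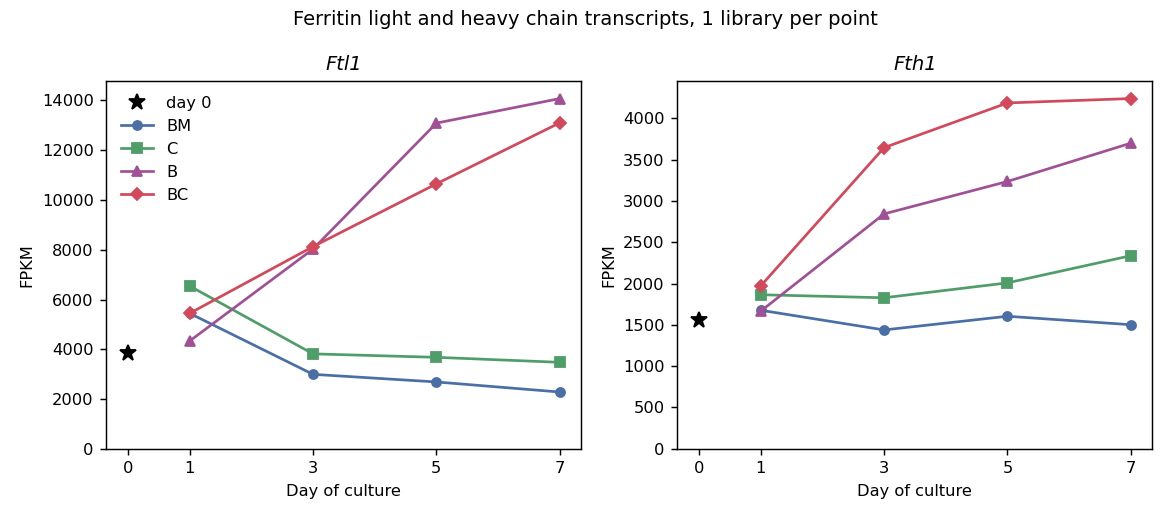
Ferritin light chain (Ftl1, left) and heavy chain (Fth1, right) in FPKM against day of culture, 1 library per point, with day 0 as a star and lines joining libraries of 1 treatment (BM, C, B, BC). From day 3 the libraries with bFGF (B, BC) lie above those without (BM, C) for both genes, and Ftl1 in BM and C declines from day 1.

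By expected count, Ftl1 ranked 8th on day 0, 2nd in all 4 libraries of day 1, and between 4th and 19th in BM and C on days 3 to 7. It ranked 1st in B on days 5 and 7 and in BC on day 7, with 223603, 247603 and 227944 counts. The next gene held 183519 (Eef1a1), 181315 (Gapdh) and 184077 counts (Eef1a1) in those libraries. In BC on day 5 it ranked 2nd, with 181061 counts against 204770 for the translation elongation factor Eef1a1, so the description of Ftl1 as the leading gene with bFGF from day 5 held for 3 of those 4 libraries. Both ferritin chains together took 0.52% of counts on day 0, 0.36 to 0.80% without bFGF and 0.57 to 1.71% with bFGF.

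Fth1, the heavy chain, was 1557 FPKM on day 0. In BM it was 1677, 1438, 1604 and 1502 FPKM on days 1, 3, 5 and 7, in C 1864, 1828, 2008 and 2337, in B 1665, 2842, 3235 and 3699, and in BC 1969.7, 3644, 4185 and 4238. The BM libraries stayed close together, and on days 3 to 7 the groups with and without bFGF did not overlap. The ratio of Ftl1 to Fth1, both in FPKM, lay between 1.49 (C on day 7) and 4.05 (B on day 5): it declined from 3.25 on day 1 to 1.52 on day 7 in BM and was 2.60 and 3.81 on the same days in B. GENCODE M21 holds 5 copies named after the ferritin light or heavy chain (Ftl1-ps1, Ftl1-ps2, Ftl2-ps, Fth-ps2 and Fth-ps3). None of these copies was listed in any library. Expected counts of Fth1 were whole numbers in all 17 libraries, so no division of its reads is seen, while those of Ftl1 were fractional. Whether reads of such copies were counted within either chain cannot be told, so the absolute level of both chains is uncertain.

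Hmox1 encodes heme oxygenase 1, which opens the heme ring and releases its iron. It was 14.1 FPKM on day 0, 35.3, 25.8, 19.2 and 25.5 FPKM in BM and 34.4, 56.4, 29.3 and 36.3 FPKM in C on days 1, 3, 5 and 7. In B it was 40.9, 314, 83.9 and 178 FPKM, and in BC 44.3, 143, 68.0 and 85.1 FPKM. The day 0 library was the lowest of all 17 and B on day 3 the highest, 22.4 times as high. With bFGF all 8 pairs were higher, by 1.58 ± 1.15 on average, and on days 3 to 7 the groups did not overlap.

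Gclc and Gclm encode the catalytic and modifier subunits of glutamate-cysteine ligase, which makes the rate-limiting step of glutathione synthesis, and their messages behaved differently. Gclc was 20.3 FPKM on day 0, 17.9, 5.83, 7.60 and 6.96 FPKM in BM and 19.7, 7.80, 8.48 and 8.54 FPKM in C. In B it was 18.4, 14.1, 14.7 and 12.0 FPKM and in BC 22.0, 16.3, 15.3 and 13.1 FPKM. On day 1 all 4 libraries were close to day 0, and on days 3 to 7 the libraries with bFGF (12.0 to 16.3 FPKM) lay above those without (5.83 to 8.54 FPKM).

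Gclm had the narrowest range of the 10 genes as a ratio, 42.3 to 66.0 FPKM over the 17 libraries or 1.56 times from lowest to highest, and its groups with and without bFGF overlapped on days 3 to 7. Its mean bFGF difference was -0.09 ± 0.24 as deposited, and 0.17 when set against the pair's median gene, so its direction depended on the scaling. Slc7a11, the cystine importer that supplies glutathione synthesis, was the least abundant, at 2.63 FPKM on day 0 and 7.04 to 10.4 FPKM in all 4 libraries of day 1. On days 3, 5 and 7 it was 1.46, 3.30 and 2.79 FPKM in BM, 3.07, 8.29 and 7.07 FPKM in C, 3.34, 0.46 and 1.12 FPKM in B and 5.25, 1.35 and 1.10 FPKM in BC. With bFGF it was above the matched library without bFGF on days 1 and 3 and below it on days 5 and 7, in both pairs.

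Txnrd1 encodes cytosolic thioredoxin reductase, which recharges thioredoxin with NADPH. It was 102 FPKM on day 0, 97.5, 35.8, 48.0 and 54.5 FPKM in BM and 90.3, 37.5, 47.0 and 53.8 FPKM in C, so that BM and C almost coincided. In B it was 117, 75.3, 73.1 and 63.6 FPKM and in BC 120.2, 57.1, 74.8 and 71.9 FPKM. All 8 pairs were higher with bFGF, by 0.53 ± 0.27 on average, and on days 3 to 7 the groups did not overlap.

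Srxn1 encodes sulfiredoxin, which repairs overoxidized peroxiredoxins. It was 33.8 FPKM on day 0, 31.3, 15.5, 19.5 and 19.3 FPKM in BM and 39.2, 18.0, 22.3 and 23.1 FPKM in C. In B it was 30.8, 20.2, 7.19 and 11.0 FPKM and in BC 38.4, 25.1, 7.98 and 9.23 FPKM. On days 5 and 7 the 4 libraries with bFGF were the lowest of the 17, the reverse of the order seen for ferritin.

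Prdx1, the abundant peroxiredoxin that removes hydrogen peroxide, was highest on day 0 at 345 FPKM. It ranged from 144 to 204 FPKM without bFGF and from 196 to 287 FPKM with bFGF on days 3 to 7, and the groups overlapped. Nqo1, a quinone reductase often read as a marker of NRF2 activity, ranged from 10.6 to 20.3 FPKM without bFGF and from 19.8 to 46.6 FPKM with bFGF on the same days. Its highest value was in BC on day 3, and by day 7 its 4 libraries lay within 17.9 to 20.6 FPKM.

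**Figure D2:**
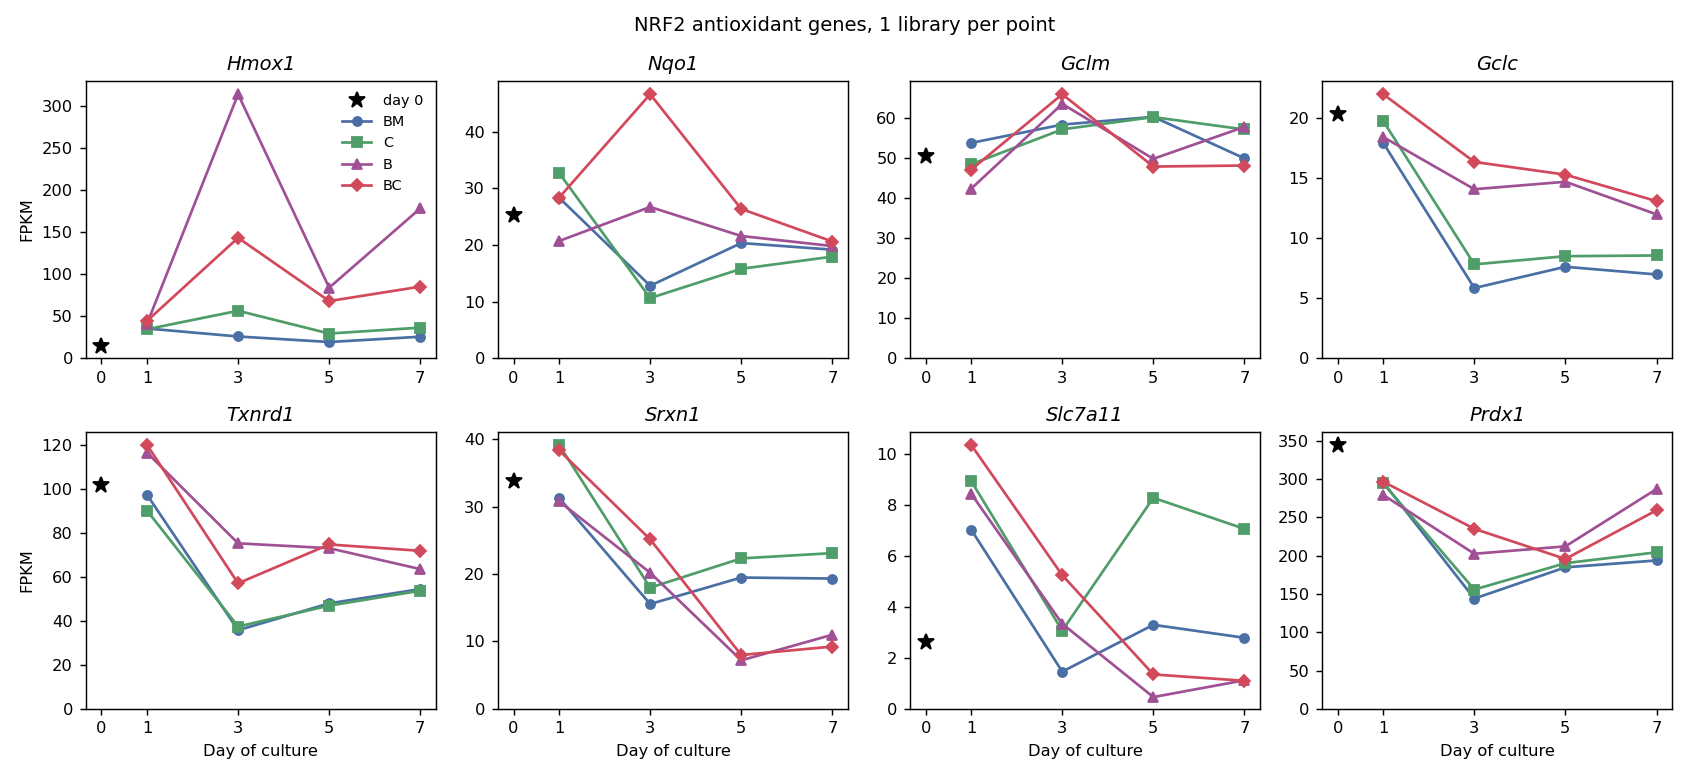
The 8 NRF2 antioxidant genes in FPKM against day of culture, 1 library per point, with day 0 as a star and lines joining libraries of 1 treatment (BM, C, B, BC). Hmox1, Gclc and Txnrd1 lie higher with bFGF on days 3 to 7, Srxn1 and Slc7a11 lie lower with it on days 5 and 7, and Gclm stays between 42.3 and 66.0 FPKM.

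The 10 genes did not form 1 pattern across libraries. On days 3 to 7, 5 of 10 (Ftl1, Fth1, Hmox1, Gclc and Txnrd1) had every library with bFGF above every one without, against 11.9% of all 11272 genes tested, and none had the reverse, against 29.7%. With day 1 included none of the 10 was without overlap in either direction, against 1.39% of all genes higher and 4.44% lower. These counts rest on the contrast through which the set was chosen and nothing is read from them.

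The fitted log2 fold changes with bFGF were 1.92 for Hmox1, 1.61 for Ftl1, 1.08 for Fth1, 1.01 for Gclc, 0.83 for Txnrd1, 0.74 for Nqo1, 0.56 for Prdx1, 0.20 for Gclm, -0.23 for Srxn1 and -0.55 for Slc7a11. Their median was 0.79, against 0.00 over all genes tested. The set was chosen through this contrast, so nothing is read from that difference. The libraries with bFGF differed in composition: as deposited, the median gene was lower in B than in BM by 0.46 and in BC than in C by 0.50 on day 7 on log2(FPKM + 1), and the fit scales this away. The FPKM differences given for single pairs include that shift, and relative to it Ftl1 averaged 1.54 higher and Fth1 1.04 higher over the 8 pairs.

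Correlations over the 17 libraries, on log2(FPKM + 1), described which genes varied alike. The points share treatments, days and the scaling to library size. Ftl1 and Fth1 had r = 0.88, Gclc and Txnrd1 0.92, Txnrd1 and Prdx1 0.86, and Srxn1 and Slc7a11 0.88, while Srxn1 had -0.53 with Ftl1 and -0.65 with Fth1. Among all genes tested, those most like Ftl1 by this measure were Gapdh (0.98), Tpi1 (0.97), Cdkn1a (0.96), Aldoa (0.96) and Lonrf3 (0.96). Gapdh, Tpi1 and Aldoa are enzymes of glycolysis, Cdkn1a is a cell cycle inhibitor, and Gapdh was at 2918 FPKM on day 0, 2141 FPKM in C on day 7 and 7492 FPKM in B on day 7.

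CHIR99021 was the factor on which these genes could be tested, and the answer depended on the model. With additive terms for day and bFGF, none of the 10 passed edgeR's quasi-likelihood test at an adjusted p of 0.05 for the effect of CHIR99021, none had an unadjusted p under 0.05, and 0.337% of all genes were called. DESeq2 and limma called none of the 10 either, and DESeq2 gave 1 of them an unadjusted p under 0.05. These fits leave the change of the bFGF effect over days in their error. A fit added after the data were seen gave each day and bFGF state a block, so that C was set against BM and BC against B of the same day, with 7 residual degrees of freedom. In it edgeR called 4 of the 10 higher with CHIR99021 and 0 lower, where 19.5% of all genes were called in either direction.

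Slc7a11 had the largest value, a log2 fold change of 0.81 in blocks (SE 0.15, adjusted p = 0.00485 by edgeR) and 0.83 with additive terms (SE 0.40, adjusted p = 0.525 by edgeR), with C above BM and BC above B in 7 of 8 pairs. The exception was day 7 with bFGF, where BC and B were 1.10 and 1.12 FPKM.

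Fth1 was higher with CHIR99021 in 8 of 8 pairs, by 0.33 ± 0.15 on log2(FPKM + 1), and Gclc in 8 of 8 by 0.19 ± 0.10. In blocks Fth1 rose by 0.34 (SE 0.06, adjusted p = 0.00242 by edgeR) and Gclc by 0.22 (SE 0.05, adjusted p = 0.0138), where the additive fit gave 0.32 (adjusted p = 0.64) and 0.21 (adjusted p = 0.751). Srxn1, higher in 7 of 8 pairs, rose by 0.20 in blocks (SE 0.06, adjusted p = 0.0242 by edgeR). The calls of Fth1, Gclc and Slc7a11 held without any 1 of the 8 pairs (adjusted p from 0.00342 to 0.0387), and that of Srxn1 was lost without either pair of day 1 or C and BM of day 3, 5 or 7 (0.0585 to 0.0709). These pairs are from 1 time course.

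For Ftl1 the change in blocks was 0.21 (SE 0.09, unadjusted p = 0.0418, adjusted p = 0.129 by edgeR) and, of the 8 omissions of a pair, it was called in the one without BC and B of day 5 (0.28, adjusted p = 0.0319). The pairs of Ftl1 were mixed, with C above BM on all 4 days and BC below B on days 5 and 7.

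**Figure D3:**
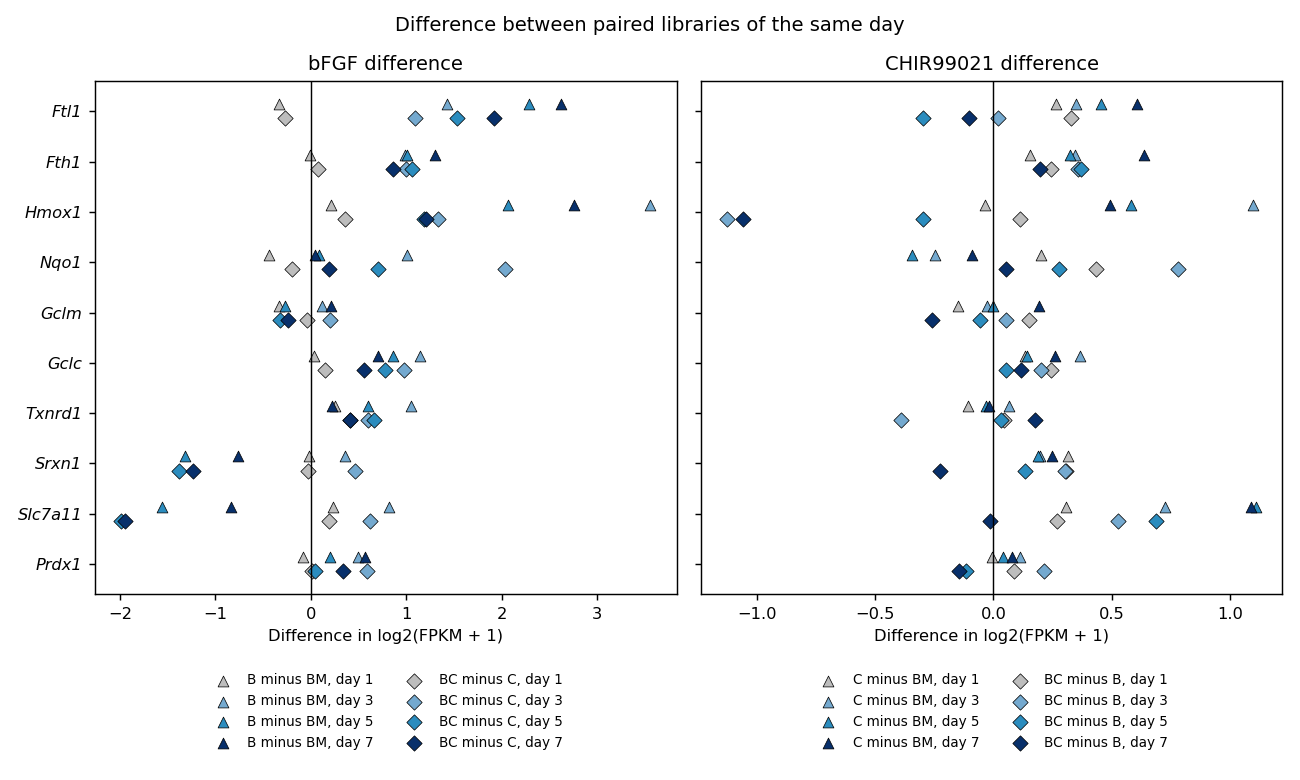
Difference in log2(FPKM + 1) between libraries of the same day for each of the 10 genes, for bFGF on the left (B minus BM, triangles, and BC minus C, diamonds) and CHIR99021 on the right (C minus BM, triangles, and BC minus B, diamonds), with darker points for later days and a narrower axis on the right. The bFGF differences of Ftl1 run from -0.33 to 2.62, while all 8 CHIR99021 differences of Fth1 and Gclc lie to the right of 0 and none exceeds 0.64.

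Hmox1 showed the widest spread with CHIR99021. C was above BM by 1.10 on day 3, whereas BC was below B by 1.13 on day 3 and by 1.06 on day 7. Its fitted interaction of bFGF and CHIR99021 was -1.18 (SE 0.59, unadjusted p = 0.0686 and adjusted p = 1 by edgeR). In blocks it was -1.17 (SE 0.28, unadjusted p = 0.00131 and adjusted p = 0.0902 by edgeR). With additive terms none of the 10 genes passed the test of the interaction, none had an unadjusted p under 0.05, and 0.00887% of all genes were called. In blocks none of the 10 passed, 3 (Hmox1, Nqo1 and Ftl1) had an unadjusted p under 0.05, and 0.692% of all genes were called. An unequal response of Hmox1 to CHIR99021 with and without bFGF thus did not pass the threshold after adjustment in either fit. DESeq2 and limma called none of the 10 for the interaction, with 1 unadjusted p under 0.05 by DESeq2.

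Without bFGF, 7 of the 10 genes fell after day 1. In the 8 libraries of BM and C, edgeR called 8 of 10 for an effect of day, against 82.8% of all 11336 genes tested. The 7 that were below day 1 on days 3, 5 and 7 were Ftl1, Nqo1, Gclc, Txnrd1, Srxn1, Slc7a11 and Prdx1, against 37.7% of all genes. The error of this fit rests on 3 residual degrees of freedom, with C and BM of a day in the place of replicates.

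Ftl1 fell by 0.87 on the log2 scale from day 1 to day 3 and by 1.13 to day 7 (adjusted p = 6.6e-06 by edgeR). Gclc fell by 1.55 to day 3 and 1.33 to day 7 (adjusted p = 4.97e-07), and Txnrd1 by 1.40 and 0.85 (adjusted p = 2.37e-07). Slc7a11 fell by 1.97 to day 3 and by 0.87 to day 7 (adjusted p = 0.000162), with C above BM on every day. For Gclc, Txnrd1, Nqo1, Srxn1, Slc7a11 and Prdx1 day 3 was the lowest of the 4 days, and Ftl1 differed from them in that day 7 was its lowest.

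Fth1 was not called (adjusted p = 0.301 by edgeR), with changes of -0.17, -0.02 and 0.04 on days 3, 5 and 7, nor was Gclm (adjusted p = 0.114), with changes of 0.13, 0.20 and 0.02. The light chain thus changed with day in these libraries, and for the heavy chain no change was called. Hmox1 was called (adjusted p = 0.0391) with 0.11 on day 3, -0.61 on day 5 and -0.27 on day 7. This call was lost under DESeq2 and limma and without BM on day 5 or 7 or C on day 5 or 7 (adjusted p from 0.0732 to 0.136 by edgeR), and its day 3 change was -0.29 without C on day 1 and -0.31 without C on day 3. Without C on day 1 Fth1 was called, with -0.32 on day 3 (adjusted p = 0.0399), and without BM on day 1 or C on day 7 Gclm was called (adjusted p = 0.0184 and 0.0271).

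**Figure D4:**
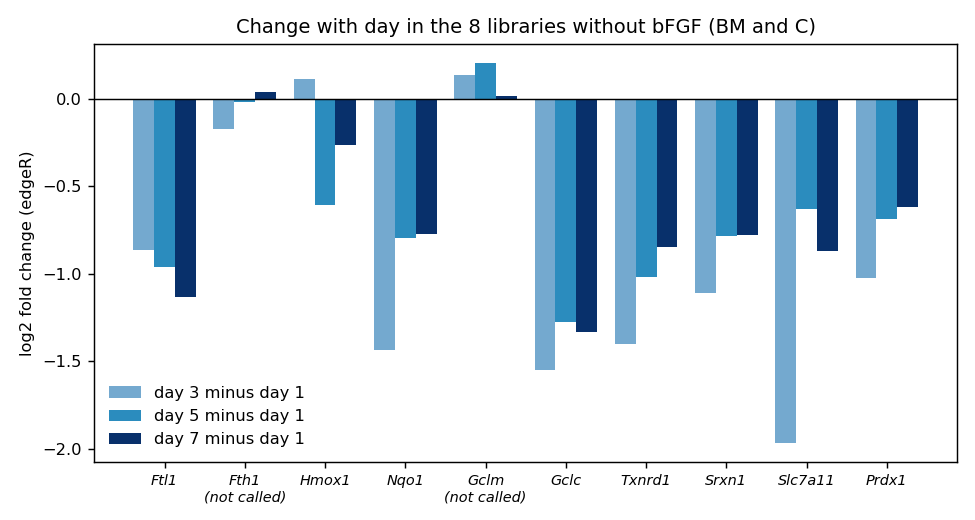
edgeR log2 fold changes of days 3, 5 and 7 from day 1 for each of the 10 genes in the 8 libraries without bFGF (BM and C, 1 library each per day), bars from 0. The 7 genes with all 3 bars below 0 reach from -0.62 to -1.97, and Fth1 and Gclm, marked as not called, stay within 0.20 of 0.

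Against the single day 0 library, a change of at least 2-fold on log2(FPKM + 1) was counted without a test. In all 4 libraries of day 1 the same 2 genes, Hmox1 and Slc7a11, were at least 2-fold above day 0, where 7.15% (BM), 7.07% (C), 3.71% (B) and 3.49% (BC) of all genes were. None of the 10 was at least 2-fold below it, where 1.78, 2.39, 0.622 and 0.799% of all genes were, in the same order. In B and BC on days 5 and 7, 3 of 10 (Ftl1, Fth1 and Hmox1) were at least 2-fold above day 0. Of all genes, 11.7% (B day 5), 11.9% (B day 7), 12.5% (BC day 5) and 12.1% (BC day 7) were. Srxn1 was at least 2-fold below day 0 in the same 4 libraries and Slc7a11 in B on day 5, where 23.2, 23.2, 23.2 and 25.6% of all genes were, in the same order. In BM and C the genes at least 2-fold below day 0 on day 3 were 4 of 10 in each, where 15.3 and 15.4% of all genes were. Gclc, Txnrd1 and Prdx1 were among them in both media, with Srxn1 in BM and Nqo1 in C. On that day none of the 10 was at least 2-fold above day 0 in BM and 1 was in C (Hmox1), where 22.3 and 21.9% of all genes were.

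The other genes of these pathways were taken from 6 lists that hold 71 genes, of which 67 passed the filter. With bFGF, edgeR called 28 higher and 13 lower of the 67, against 34.6 and 33.9% of all genes, and their median log2 fold change was 0.17. limma on log2(FPKM + 1), which keeps the shift of the median gene, called 21 higher and 26 lower of the 67, and 2289 higher and 5686 lower of all genes where edgeR called 3896 and 3817. Directions below are relative to the median gene.

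Of 10 regulators of NRF2, 4 rose, 1 fell and 5 did not pass. Keap1, which holds NRF2 down, fell with a log2 fold change of -0.78 (SE 0.23, adjusted p = 0.0087 by edgeR). It was 23.8 to 32.8 FPKM in the 8 libraries without bFGF and 21.9 to 31.2 FPKM in B and BC on days 1 and 3. It was then 6.01 FPKM in B and 6.74 FPKM in BC on day 5 and 6.87 and 5.56 FPKM on day 7, below every library without bFGF. Nfe2l2 itself did not pass (0.11, SE 0.08, adjusted p = 0.206), at 21.0 to 47.2 FPKM with bFGF and 34.0 to 44.4 FPKM without, and limma gave it -0.17.

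The messages of the small Maf proteins Maff (2.52, SE 0.40, adjusted p = 0.000325 by edgeR) and Mafk (0.93, SE 0.22, adjusted p = 0.00252) rose. So did those of Sqstm1, an autophagy receptor that binds Keap1 (0.70), and, relative to the median gene, Cul3 (0.32). As deposited, Cul3 was 22.5 to 29.8 FPKM without bFGF and 21.8 to 30.2 FPKM with it, so no rise was seen in FPKM. Maff was 5.68 to 19.1 FPKM without bFGF and 16.1 to 91.8 FPKM with it. Bach1 (0.22, adjusted p = 0.0604) and Mafg (0.04, adjusted p = 0.602) did not pass, and both values turned below 0 under limma. Bach1 was called without C, B or BC on day 1 or BC on day 7 (adjusted p from 0.0406 to 0.0489).

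Of 13 genes of glutathione use, 6 rose and 1 fell, led by the glutathione conjugate exporter Abcc1 (1.39, SE 0.16, adjusted p = 5.64e-05 by edgeR), the transferase Gstp1 (1.12) and glutaredoxin Glrx (0.97), with Mgst1 lower (-0.31). The call of Mgst1 was lost without BM on day 1, 3 or 5, C on day 3, B on day 1, 3 or 5, or BC on day 1 or 3 (adjusted p from 0.0513 to 0.0748). limma called 3 higher and 5 lower in this list. Slc3a2, the chain that carries Slc7a11 to the membrane, rose by 0.34. Of 12 thioredoxin, peroxiredoxin and other antioxidant genes, 7 rose and 2 fell: Txnip, an inhibitor of thioredoxin, rose by 1.20 (SE 0.48, adjusted p = 0.0396), Txn2 by 0.98, Prdx4 by 0.97 and Txn1 by 0.94, and the mitochondrial Prdx3 fell by 0.29 and Sod2 fell by 0.28. The call of Txnip was lost without any 1 of the 8 libraries of days 5 and 7 or C on day 3 (adjusted p from 0.059 to 0.113), and that of Prdx3 without B or BC on day 5 or 7 (0.0517 to 0.0697).

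Of 14 enzymes that supply NADPH or detoxify, 5 rose and 3 fell. Blvrb, a biliverdin reductase that acts after heme oxygenase, rose by 1.54 (SE 0.31, adjusted p = 0.00102 by edgeR), from 26.6 to 41.3 FPKM over the libraries without bFGF to 78.9 to 133 FPKM on days 3 to 7 with it. The oxidoreductase Htatip2 (0.91) and the pentose phosphate enzyme Taldo1 (0.90) were also higher. Aldh3a1, an aldehyde dehydrogenase, fell by 2.27, the carbonyl reductase Cbr1 by 1.24 and the pentose phosphate enzyme Tkt by 0.30. The call of Tkt was lost without BM on day 3, 5 or 7, C on day 7, B on day 3, 5 or 7, or BC on day 5 or 7 (adjusted p from 0.0504 to 0.0942). limma called 5 higher and 7 lower in this list.

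Of 13 genes of iron uptake, export and sensing, 4 rose and 6 fell. Slc40a1, the exporter whose message carries the element printed above, fell by 1.30 on the log2 scale (SE 0.24, adjusted p = 0.000801 by edgeR). It was 0.33 FPKM on day 0, 1.60 to 4.38 FPKM without bFGF, 0.88, 2.52, 0.63 and 0.48 FPKM in B and 1.13, 3.80, 1.08 and 0.64 FPKM in BC, low levels throughout. The messages of both iron regulatory proteins fell, Ireb2 by 0.30 (adjusted p = 0.00901 by edgeR) and Aco1 by 0.32 (adjusted p = 0.0407). Those of the ferroxidase Cp and the ferrireductase Steap3 fell by 0.60 and 0.52. Protein levels and their activity were not measured in these data. The call of Aco1 was lost without any 1 of the 8 libraries of days 5 and 7 (adjusted p from 0.0583 to 0.0956), and that of Steap3 without C on day 3 or 7 or BC on day 3, 5 or 7 (0.0503 to 0.0666).

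The messages of the iron chaperones Pcbp2 (0.96) and Pcbp1 (0.51), which hand iron to ferritin, rose. So did that of Ncoa4, the receptor that carries ferritin to the lysosome (0.30). Tfrc rose by 0.52 (adjusted p = 0.0028 by edgeR), but not under limma (0.22, adjusted p = 0.0752), and its larger movement was with time. It was 86.8 FPKM on day 0, 24.1 to 33.9 FPKM on day 1 and 5.30 to 11.4 FPKM later. Of 5 genes of heme handling, 2 rose, the heme transporters Slc48a1 (1.16) and Abcb6 (0.83), and none was called lower, where limma called 1 higher and 3 lower.

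**Figure D5:**
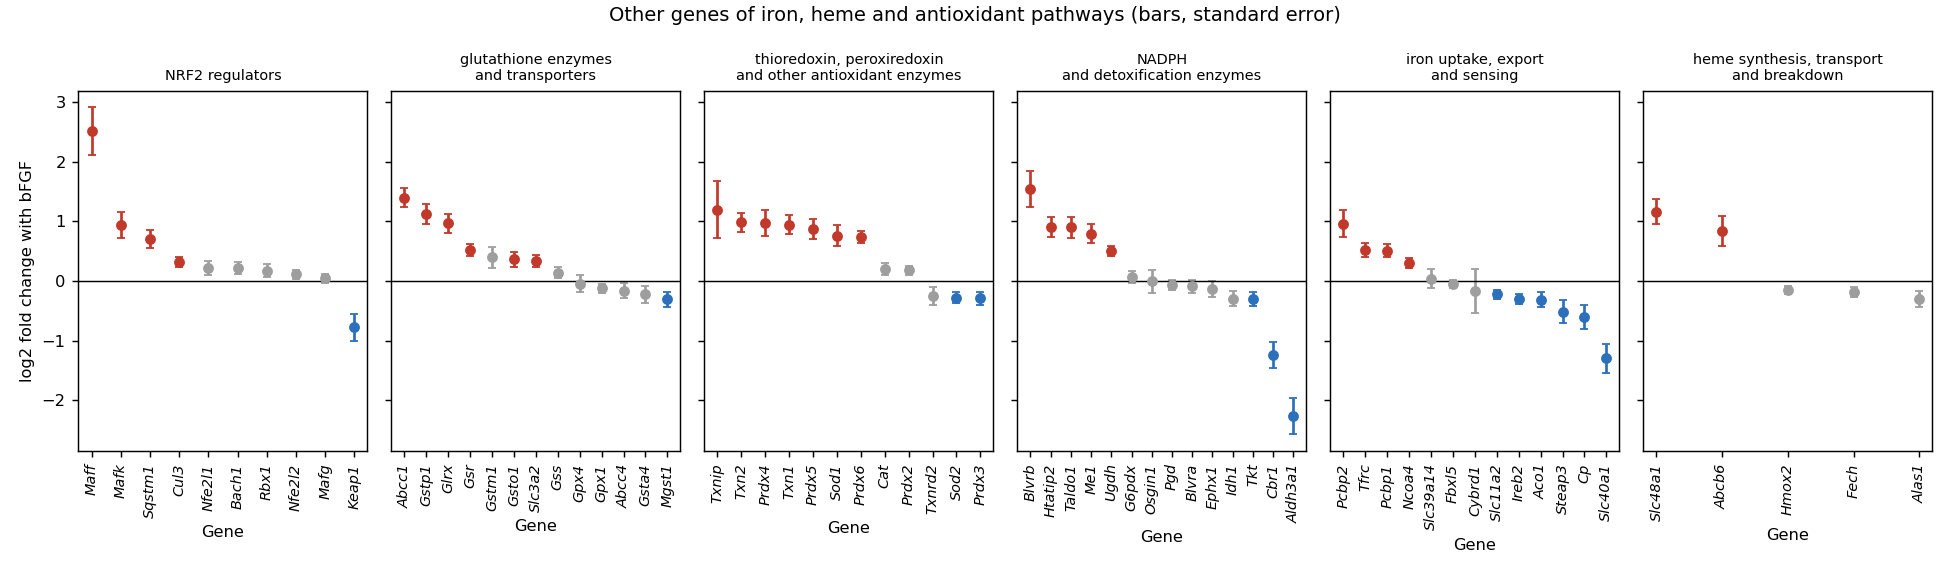
edgeR log2 fold change with bFGF for the 67 tested genes of the 6 pathway lists, 1 panel per list, with bars of 1 standard error; red genes were called higher, blue lower and gray were not called. Maff stands highest at 2.52 and Aldh3a1 lowest at -2.27, and the list of iron genes has more blue points (6) than red (4).

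For CHIR99021 none of the 67 was called by edgeR with additive terms, 8 had an unadjusted p under 0.05, and DESeq2 and limma each called 1 (Ugdh by DESeq2, at -0.36). In blocks edgeR called 12 higher and 4 lower of the 67, where 19.5% of all genes were called in either direction. The pathway genes called included Osgin1, an NRF2 target that limits growth (0.49, SE 0.09, adjusted p = 0.00372), Maff (-0.55, SE 0.10, adjusted p = 0.00371) and Ugdh, which makes UDP-glucuronate (-0.36, SE 0.04, adjusted p = 0.000349). None of the 13 iron genes was called in blocks. None of the 67 was called for the interaction with additive terms, with 4 at an unadjusted p under 0.05. In blocks 3 were called (Aldh3a1, Cybrd1 and Steap3), where 0.692% of all genes were. Over days without bFGF, 54 were called, 23 higher and 31 lower on day 3 than on day 1, against 41.5 and 41.3% of all genes. Tfrc fell by 2.12 from day 1 to day 3 (adjusted p = 2.07e-07 by edgeR), glutathione reductase Gsr fell by 1.80 and Txn1 fell by 1.64, while Txnip rose by 3.84 (adjusted p = 4.39e-07) and Cp by 2.72. The thioredoxin list had 8 lower and 2 higher, and 4 of its lower genes (Txn1, Txn2, Prdx6 and Prdx3) had day 3 as their lowest day, as Txnrd1 and Prdx1 did.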

How the data were processed

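Libraries of poly-A RNA were sequenced on a BGISEQ-500. The authors aligned reads with Bowtie2 to mm10. The submitters' notes name RSEM for quantification and the study's methods name eXpress, and versions are not given in the sources used here. The deposited files hold an expected count and an FPKM value per gene, and a gene absent from 1 library's list counted as 0 there. Between 63.9 and 66.6% of expected counts were whole numbers.

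The 10 genes and the pathway and marker lists were chosen with earlier results of these data known. Expected counts were rounded and fitted with edgeR 4.0.16 (R 4.3.3), TMM scaling and the quasi-likelihood test, on day, bFGF and CHIR99021 for the 16 libraries of days 1 to 7 (10 residual degrees of freedom), with an interaction term, and on day and CHIR99021 for the 8 libraries without bFGF. Day 0 entered no test. A mean of at least 1 FPKM was required of a gene (11272 and 11336). P-values were adjusted by Benjamini-Hochberg over all genes tested, with 0.05 as the threshold. FPKM differences used log2(FPKM + 1), which understates changes of low genes. Named pathway genes were the up to 3 largest changes in each direction of a list past the threshold (for day, the largest in each), together with the NRF2 and iron regulators. Ncoa4, Slc3a2, Txn1 under bFGF, Txn2, Prdx6 and Prdx3 under day, Cd68, Cx3cr1, Glul, Ugdh and, in blocks, Osgin1, Maff, Aldh3a1, Cybrd1 and Steap3 were named after their values were seen.

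Alternatives were DESeq2 1.42.0 size factors and test, limma 3.58.1 on log2(FPKM + 1) and log2(FPKM + 0.1), other filters, quantile normalization, omission of day 1 and of each library, and, added after the data were seen, an edgeR fit of CHIR99021 with a block for each of the 8 states of day and bFGF, also without each pair. The fits were also run on simulated counts in which only the tested factor changed, with a smaller spread than the additive fits of the 16 libraries had. Those counts held no change of the bFGF effect over days, so they cannot show how the additive fits fare with one. Trf, Heph and Hpx did not pass the filter and Flvcr1 was not analysed here.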

Additional observations from a re-analysis of the deposited data

Results flagged for a closer look

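For 3 of the 10 genes the difference between libraries with and without bFGF pointed one way on day 1 and the other way on day 7 in both pairs (B minus BM, BC minus C), on log2(FPKM + 1). Of all 11272 genes tested, 24% turned in this way in either direction, so 3 of 10 is near that share. By direction, 7.48% turned from lower to higher with bFGF, as Ftl1 and Nqo1 did, and 16.5% from higher to lower, as Slc7a11 did. The difference between the days was not tested, because the genes were chosen on this contrast. For Ftl1 the differences were -0.33 and -0.27 on day 1 and 2.62 and 1.91 on day 7, so that the mean of the pairs moved by 2.57. For Nqo1 they were -0.44 and -0.20 on day 1 and 0.04 and 0.19 on day 7, a move of 0.44 that ends close to 0. For Slc7a11 they were 0.23 and 0.19 on day 1 and -0.84 and -1.94 on day 7, a move of -1.60 in the opposite direction to ferritin.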

How the results depend on the processing

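Apart from the block fit below, settings changed the call or direction of few of the genes checked singly. These were the 10 genes, the largest changes of each list, and Nfe2l2, Keap1, Bach1, Mafg, Tfrc, Slc40a1, Ireb2 and Aco1. The bFGF values of Cul3, Ncoa4, Slc3a2, Txn1 and the cell type markers were not checked in this way. Under limma, on log2(FPKM + 1) and on log2(FPKM + 0.1), the bFGF value turned negative for Gclm (-0.086, -0.087), Bach1 (-0.06, -0.072), Nfe2l2 (-0.175, -0.181) and Mafg (-0.131, -0.135). Mafg was also -0.03 under a filter of 5 FPKM and -0.008 without day 1. The cause was not tested, but limma on FPKM keeps the shift of the median gene. limma also lost the bFGF calls of the pathway genes Abcb6 and Tfrc. For Nqo1 the limma values were 0.429 and 0.449 where edgeR gave 0.74, a contrast used to choose the 10 genes. The bFGF calls of Aco1, Mgst1 and Tkt were lost without a filter on low values and that of Mgst1 without day 1. Quantile normalization, which gives the top ranks of every library the same values, reduced the mean bFGF difference of Ftl1 to 0.10 and of Fth1 to 0.08.

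Genes called for CHIR99021 numbered 38, and 281 with DESeq2, 22 without a filter, 24 without day 1 and 1 to 28 with 1 library left out, every omission but those of B day 1 and BC day 5 moving the count by over 1.5 times. Pathway genes called for it were 0, and 1 with DESeq2 and with both limma fits. Genes called for the interaction were 1, and 5 with DESeq2, 0 with both limma fits, 2 without day 1 and 0 to 1 with 1 library left out. None of the 10 genes was called for either in any of these fits. The fit with a block for each day and bFGF state, added after the data were seen, was the exception: 2199 genes, 4 of the 10 and 16 pathway genes were called for CHIR99021, and 78 genes, 0 of the 10 and 3 pathway genes for the interaction. Its spread between libraries was smaller, a biological coefficient of variation of 10% against 24.7% with additive terms. The CHIR99021 values that changed sign on leaving out a library ranged from -0.063 to 0.346 for Ftl1, -0.065 to 0.04 for Gclm, -0.308 to 0.06 for Hmox1, -0.013 to 0.284 for Nqo1, -0.02 to 0.095 for Prdx1 and -0.078 to 0.024 for Txnrd1. The day 3 change of Hmox1 without bFGF ranged from -0.31 to 0.523.

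Depth was similar in all libraries and did not limit the abundant genes. The lowest value reported for the 10, 0.46 FPKM for Slc7a11, is the least certain of them. The number of libraries, 1 per treatment and day, limits all tests.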
